A study of Mus musculus with 6 samples.

Results

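The mitosis and G2/M genes are 46 genes that cells use between the end of DNA replication and the splitting into daughter cells. They were taken by gene symbol from the expression table of each mouse, where they are 46 of 55076 rows, and all 46 symbols were present. The anterior prostate (AP) of 20-week-old male mice was profiled by RNA-seq, with 3 OEx and 3 Ctrl mice and a library for each mouse. OEx mice carried Pbsn-Cre and Rosa26 N1ICD/+, so that the Notch1 intracellular domain (N1ICD), the active form of the receptor, was overexpressed where the prostate epithelial Pbsn promoter drives Cre. Ctrl mice carried Rosa26 N1ICD/+ without Cre according to the methods of the study, while their labels name them wild type. The tissue was whole AP, so epithelium, stroma and immune cells were measured together, and a higher level from more dividing cells cannot be told apart from more RNA in each of them.

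Entry into mitosis is driven by the kinase Cdk1 bound to cyclin A2 or to a B-type cyclin, and is opened further by Plk1 and the Aurora kinases. Condensins and topoisomerase II alpha then shape the chromosomes, kinetochores tie them to the spindle, and the spindle checkpoint holds back the anaphase-promoting complex (APC/C) until all are attached. Most of these genes are transcribed together late in the cycle, from promoters that often hold a cell cycle genes homology region (CHR, TTTGAA) bound through the MuvB complex, and CCAAT boxes bound by NF-Y. The adult prostate epithelium divides rarely in intact males.

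RefSeq promoters of build GRCm38.p6, each from 250 bases before to 50 bases after a gene start, were available for 39 of the 46 genes, which have 42 promoters between them. Aurkb, Smc4, Foxm1, Tpx2, Cdc25c, Kif20a and Ccna2 had no entry. On either strand, TTTGAA stood in 31 of the 42 promoters (73.8%), against 17.9% of all 32851 promoters in the table. CCAAT stood in 32 of the 42 (76.2%, against 37.4%), and both stood in 27 (64.3%, against 6.95%). Only 1 pair of TTTGAA and CCAAT matches overlapped. The letters TGGGAA, the core of the site bound by the Notch partner RBPJ, stood in 8 of the 42 (19.0%, against 25.6%). These are matches of letters, not measured binding. The 6 stretches of 120 bases shown here lie just before the annotated starts, and were chosen to set 3 genes that rose in OEx AP (Mki67, Kif11, Ect2) beside 3 that were not called (Cdk1, Top2a, Cdc20). Each runs 5′ to 3′ in the direction of its gene, and capitals mark TTTGAA or CCAAT, or TTCAAA or ATTGG where the match is on the other strand. Mki67 is at chr7:135716380-135716499 (minus strand), Kif11 at chr19:37376262-37376381 (plus), Ect2 at chr3:27153879-27153998 (minus), Cdk1 at chr10:69352939-69353058 (minus), Top2a at chr11:99024190-99024309 (minus) and Cdc20 at chr4:118437353-118437472 (minus).
Mki67: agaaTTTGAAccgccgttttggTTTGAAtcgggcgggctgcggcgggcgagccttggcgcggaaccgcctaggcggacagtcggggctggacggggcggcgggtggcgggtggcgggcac
Kif11: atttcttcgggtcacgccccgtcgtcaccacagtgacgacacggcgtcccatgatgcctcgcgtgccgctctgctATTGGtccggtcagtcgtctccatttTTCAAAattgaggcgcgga
Ect2: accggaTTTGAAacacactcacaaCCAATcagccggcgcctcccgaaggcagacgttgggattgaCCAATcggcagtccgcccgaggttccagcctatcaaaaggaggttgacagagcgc
Cdk1: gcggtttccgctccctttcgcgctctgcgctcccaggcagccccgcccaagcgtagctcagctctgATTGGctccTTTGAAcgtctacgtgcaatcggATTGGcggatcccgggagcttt
Top2a: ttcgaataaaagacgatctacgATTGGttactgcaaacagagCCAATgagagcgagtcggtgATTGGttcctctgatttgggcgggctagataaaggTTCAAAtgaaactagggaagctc
Cdc20: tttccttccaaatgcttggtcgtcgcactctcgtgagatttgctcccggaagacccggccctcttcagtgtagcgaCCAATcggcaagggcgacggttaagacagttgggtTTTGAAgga
The stretches show only a part of each promoter: the CCAAT matches of the Mki67 promoter, 3 in all, lie upstream of the bases printed. Matches downstream of the bases printed include a TTTGAA of Cdk1 at -15 and a CCAAT of Cdc20 at -8 from the RefSeq start. Among the promoters of genes called higher in OEx mice, as defined below, TTTGAA stood in 19 of 27 (70.4%), and among those of genes not called it stood in 11 of 14 (78.6%). CCAAT stood in 18 of 27 (66.7%) and in 13 of 14 (92.9%), and both motifs in 15 of 27 (55.6%) and in 11 of 14 (78.6%); these differences were not tested.

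Notch1 itself was 41.9, 47.6 and 78.9 FPKM (reads scaled to gene length and to library size) in the OEx mice and 5.18, 5.55 and 3.34 in the Ctrl mice, with no overlap. Reads of the endogenous gene and of the transgene cannot be told apart in it. The reads behind the FPKM values could be recovered, and came to 14762182 to 18650962 per mouse. Luminal epithelial markers were high in all mice, with a median of 277 to 430 FPKM over 7 genes, although Krt18, Hoxb13 and Cd24a were called lower in OEx mice. The 4 basal epithelial markers summed to 6.79, 7.05 and 15.9 FPKM in OEx mice and to 218, 212 and 249 in Ctrl mice, and all 4 were called lower. All 5 smooth muscle markers, summing to 417, 418 and 351 FPKM in OEx mice and to 1062, 1043 and 2245 in Ctrl mice, and 3 of 5 endothelial markers were called lower too. The part of these shifts in cell markers in the results was not tested. Ctrl replicate 3 stood apart with 16128 FPKM summed over 8 seminal vesicle genes, against 0.578 to 4.36 in the other 5 mice. OEx replicate 3 stood apart with 11.4 FPKM summed over 14 immune markers and 25.1 over 6 fibroblast markers, against 44.3 and 45.2 (immune) and 250 and 252 (fibroblast) in the other OEx mice; the Ctrl mice had 12.4, 11.1 and 19.7 (immune) and 54.4, 53.1 and 94.7 (fibroblast). Each result with and without these libraries is given below where it changed.

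Most mitosis and G2/M genes were higher in OEx AP, but from a very low base. In Ctrl AP, 32 of the 46 had a mean below 1 FPKM, and in OEx AP 14 did. The ratio of the group means had a median of 2.78 over the 46 genes and ran from 0.239 for Cks1b to 15.5 for Kif20b. It was above 2 for 30 genes, above 4 for 17 and below 1 for 6. The lowest OEx mouse exceeded the highest Ctrl mouse for 35 genes, the reverse held for Bub3, Cks1b and Pttg1, and the groups overlapped for 8. Of all 20134 rows whose mean reached 0.1 FPKM, 33.9% had the OEx mice above and 29% had them below. For a single gene, 3 mice against 3 cannot give an exact two-sided permutation p below 0.1, so the tests used models fitted to all genes together.

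The 2 models used gave very different counts. The limma fit on log2(FPKM + 1) covered rows whose mean reached 1 FPKM and so tested 22 of the 46 genes. It called Smc4, Mki67 and Anln higher and Cks1b lower, at an adjusted p (Benjamini-Hochberg over all rows) under 0.05 and a change of more than 2-fold. The mean of the filter was taken over the mice of both groups. Smc4, Mki67 and Anln had Ctrl means of 0.963, 0.215 and 0.630 FPKM, so they entered the fit only through their OEx values. Of all 12833 rows tested, 12.9% were called higher and 15.7% lower. Smc4, Mki67 and Anln were the only genes called higher of the 22 tested, a share near that of all rows. Without the fold criterion, 10 of the 22 were higher and 2 (Cks1b and Bub3) lower, against 30.7% and 36.5% of all rows. Of these 10, Ccna2, Aurkb, Bub1b and Tpx2 also entered only through their OEx values, with Ctrl means of 0.517, 0.577, 0.900 and 0.522 FPKM. Adding 1 FPKM shrinks the fold change of genes near 1 FPKM. The second fit, limma-voom on the recovered reads, which weights each value by its precision, tested all 46 genes. It called 31 higher, 1 lower (Cks1b) and left 14 uncalled under the same criteria, whereas 21.4% of all 20236 rows tested were called higher and 15% lower. The median log2 fold change was 1.55 over the 46 genes and 0.18 over all rows. Of the 24 genes that the limma fit left out, 22 were called higher by limma-voom, and of the 22 it tested, 9 were. Without the filter the limma fit tested all 46 genes and called 4 higher, Kif11 being added, while with a pseudocount of 0.1 FPKM and a filter of 0.1 FPKM it called 29. Below, "called" refers to limma-voom, although the limma fit was the main test. The limma result on log2(FPKM + 1) is given where that fit tested the gene and the calls differed or are of note.

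Scaling between mice moved all genes together. The library sizes behind the FPKM values exceeded the reads recovered from OEx mice, by 1.22 to 1.35 times, and fell short of those from Ctrl mice, at 0.726 to 0.815 times, where the most abundant row took 14.3% to 22.0% of reads (at most 1.12% in OEx mice). With the recovered totals in place of these sizes, limma-voom called 40 of the 46 genes higher and 1 lower, the median of all rows moved from 0.18 to 0.96 and 40.5% of all rows were called higher. The 9 genes gained were Top2a, Cdk1, Bub1b, Cdc20, Cdca3, Cdca8, Plk1, Ube2c and Foxm1. That limma-voom left them uncalled below holds for the deposited scaling and not for the recovered totals, the only scalings tried with that fit. No scaling that was tried lowered the count of genes called higher. Below, Aurka, Bub3, Cdc25b, Cks2 and Pttg1 are the genes whose direction turned with scaling.

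**Figure D1:**
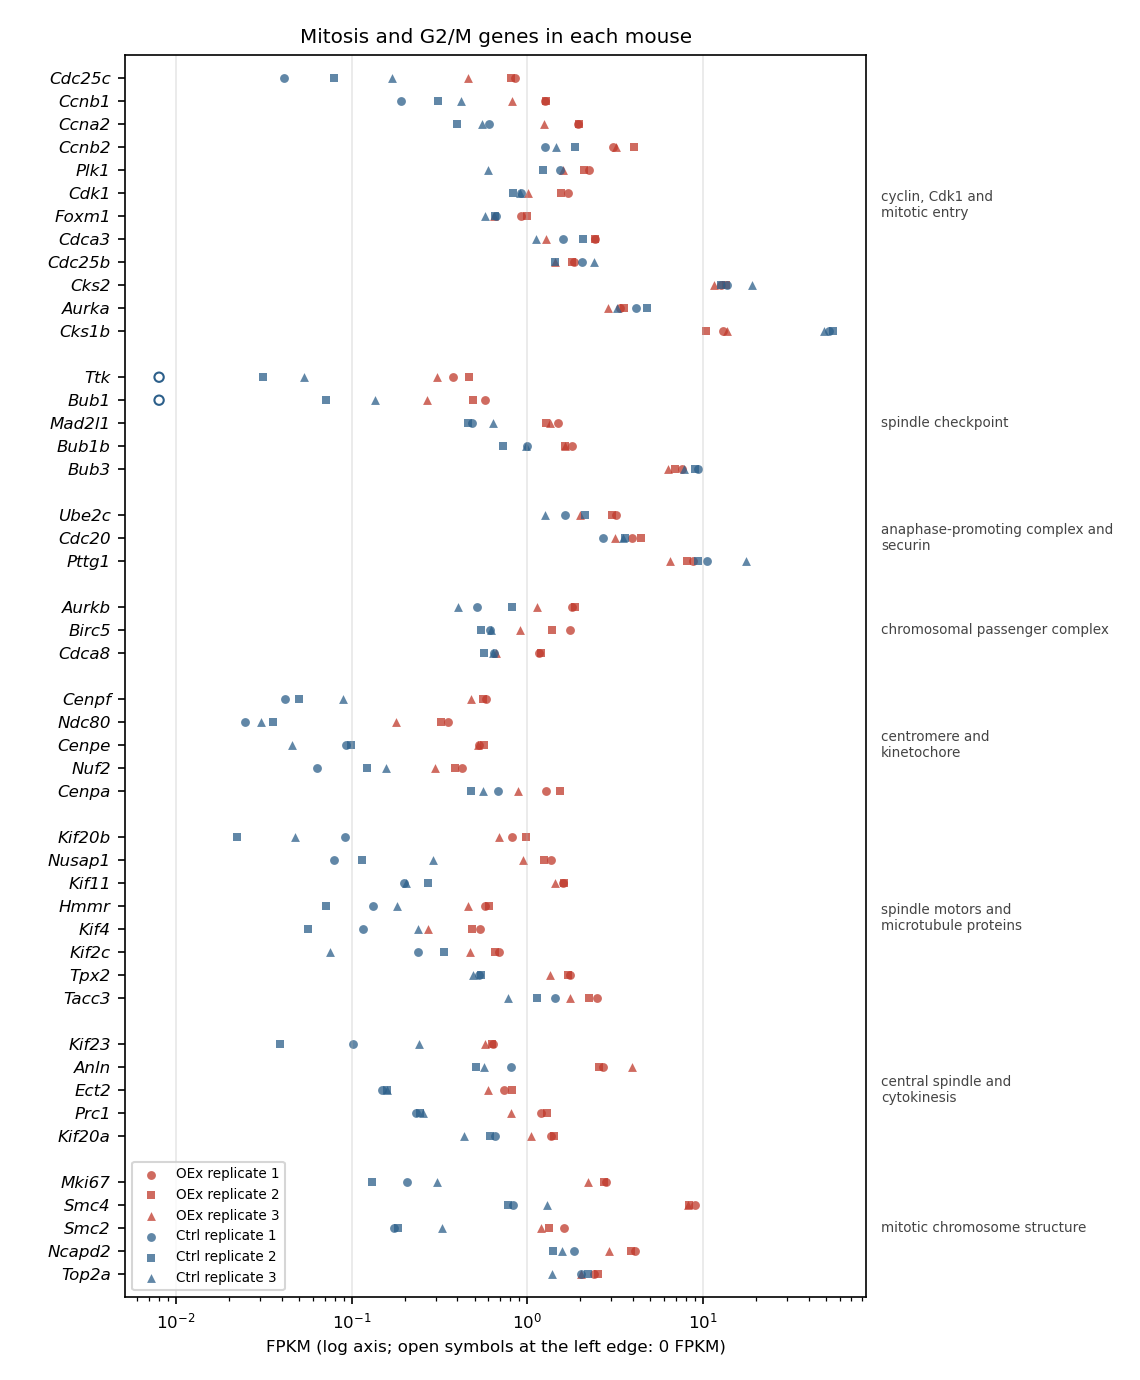
FPKM of the 46 mitosis and G2/M genes in each mouse on a log axis, grouped by role; red symbols are OEx mice, blue symbols Ctrl mice, and the symbol shape gives the replicate. The OEx mice lie to the right of all Ctrl mice for 35 genes, Cks1b lies far to the left in OEx mice, and Bub1 and Ttk were at 0 FPKM in Ctrl replicate 1 (open symbols).

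The cyclins and Cdc25c rose, while the kinase they act on did not pass the test. Ccnb1, the cyclin B1 that activates Cdk1 at mitotic entry, was 1.26, 1.28 and 0.814 FPKM in OEx mice and 0.190, 0.311 and 0.421 in Ctrl mice. Ccnb2, the other main B-type cyclin, was 3.08, 4.06 and 3.18 FPKM against 1.25, 1.87 and 1.46. Ccna2, cyclin A2 of S phase and G2, was 1.94, 1.97 and 1.25 FPKM against 0.607, 0.397 and 0.548. For all 3 cyclins the groups did not overlap, and the log2 fold changes by limma-voom were 1.86 ± 0.39 (SE, adjusted p = 0.00468), 1.17 ± 0.27 (0.00706) and 1.72 ± 0.33 (0.00296). In the limma fit on log2(FPKM + 1), Ccna2 and Ccnb2 passed the adjusted p (0.00331 and 0.0023) with changes of 0.83 and 0.81, short of 2-fold. Cdc25c, a phosphatase that releases Cdk1 from inhibition, was called higher with a log2 fold change of 2.83 ± 0.56. Cdk1 was 1.70, 1.56 and 1.01 FPKM in OEx mice and 0.923, 0.830 and 0.907 in Ctrl mice. Its groups did not overlap, yet its log2 fold change of 0.66 (95% interval 0.04 to 1.28, adjusted p = 0.0683) was not called.

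The other mitotic entry genes were spread around no change. Plk1, a kinase active from entry to cytokinesis, was 2.26, 2.11 and 1.59 FPKM in OEx mice and 1.53, 1.23 and 0.599 in Ctrl mice, separate but uncalled (adjusted p = 0.0565). Foxm1, the transcription factor that drives many genes of this set, was 0.915, 0.996 and 0.645 FPKM against 0.667, 0.658 and 0.572, with a log2 fold change of 0.43 (95% interval -0.17 to 1.02). Aurka, which matures the centrosomes and activates Plk1, was 3.39, 3.56 and 2.87 FPKM against 4.14, 4.79 and 3.25. The Aurka groups overlapped at the values of OEx replicates 1 and 2 and Ctrl replicate 3, and its log2 fold change of -0.28 (95% interval -0.73 to 0.18) turned above 0 with the recovered totals. Cdca3 and Cdc25b overlapped between the groups as well. So 4 of the 12 cyclin, Cdk1 and entry genes were called higher, 1 lower and 7 neither.

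Cks1b was the exception of the set. It encodes a small Cdk-binding protein that also helps the SCF-Skp2 ubiquitin ligase to recognise p27. It was 13.0, 10.4 and 13.8 FPKM in OEx mice and 52.0, 54.7 and 49.0 in Ctrl mice, a wide gap with little spread in either group. Its log2 fold change was -2.08 ± 0.13 (adjusted p = 2.36e-05) by limma-voom and -1.99 ± 0.12 (3.88e-05) by limma, and it was called lower under each setting tried. Its paralog Cks2 was 12.6, 13.5 and 11.5 FPKM in OEx mice and 13.7, 12.6 and 18.9 in Ctrl mice, so the groups overlapped; its log2 fold change of -0.26 (95% interval -0.71 to 0.20) turned above 0 under other scalings. The retrogene Cks1brt, a copy of Cks1b, was at 0 in all OEx mice and at 0.0333, 0.0644 and 0.384 FPKM in Ctrl mice. How reads shared by Cks1b and this copy were assigned is not given in the sources used here. Because Cks1b was by far the most abundant of the 46 genes in Ctrl mice, the summed FPKM of the whole set was no higher in OEx mice (117, 114 and 97.3) than in Ctrl mice (117, 118 and 123) under the deposited scaling. With the recovered totals it was higher, at 157, 153 and 119 against 84.9, 86.0 and 99.9.

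**Figure D2:**
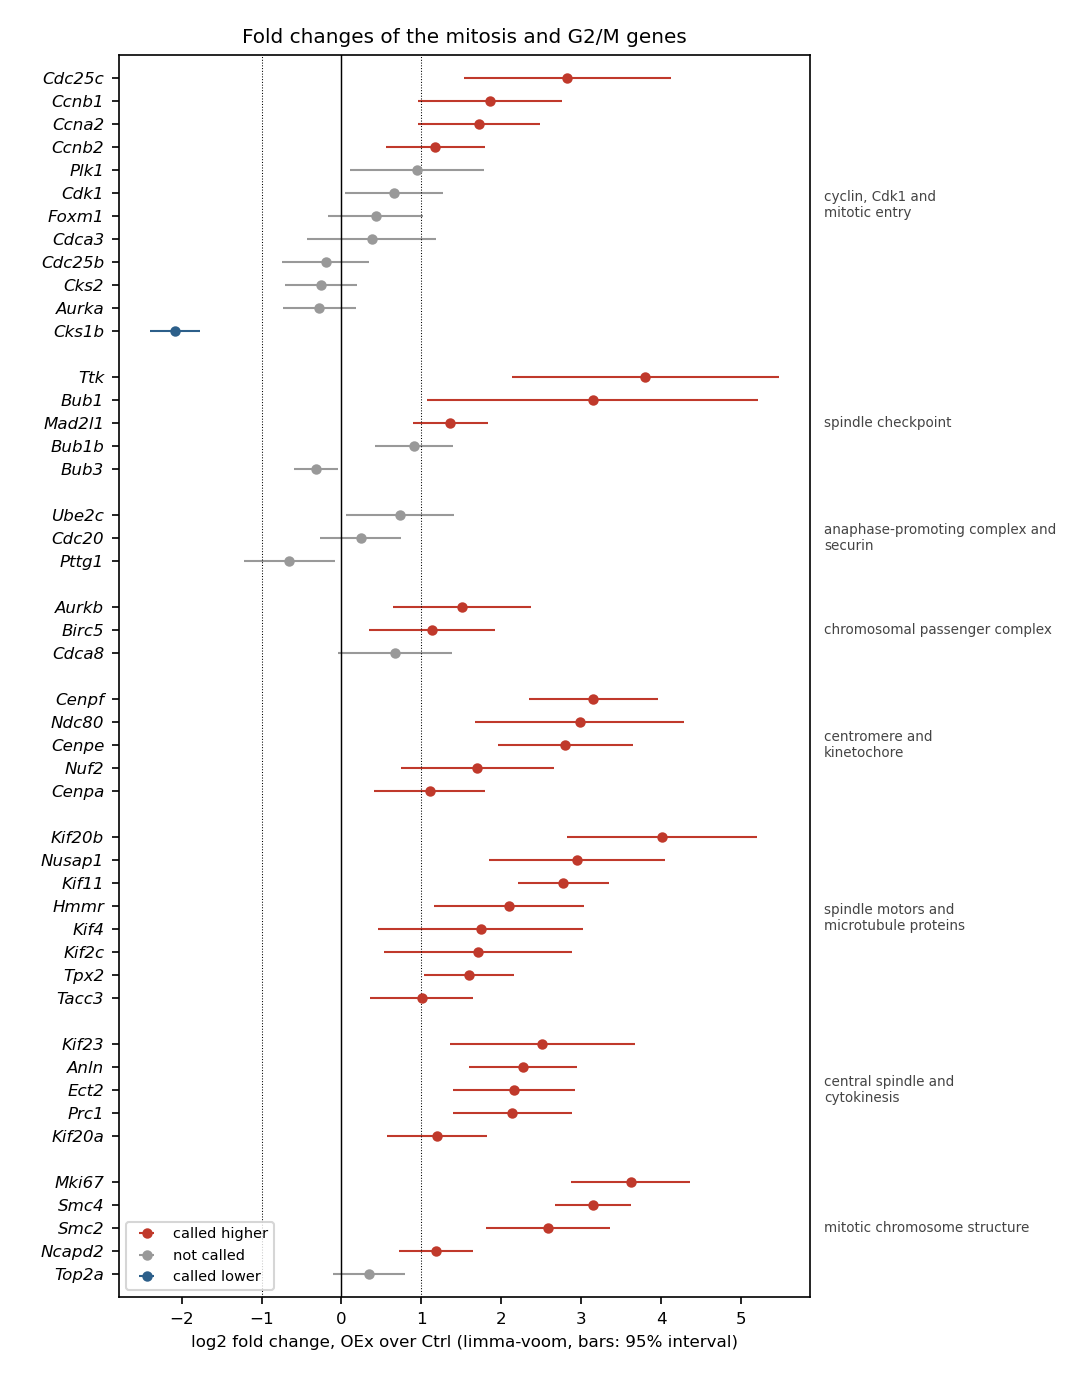
Log2 fold change of each mitosis and G2/M gene, OEx over Ctrl, by limma-voom with its 95% interval, grouped by role; dotted lines mark 2-fold. All kinetochore, spindle motor and cytokinesis genes are red (called higher), no APC/C gene is, and Cks1b alone is blue; Aurka, Bub3, Cdc25b, Cks2 and Pttg1, left of 0 here, moved right of 0 with the recovered library totals, and Cdc20 and Ube2c were then called.

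The spindle motors and microtubule proteins rose as a group, with all 8 called higher. Their log2 fold changes had a median of 1.92 and were highest for Kif20b (4.01), and the ratio of the means was lowest for Tacc3 (1.93). Kif11, the motor that pushes the spindle poles apart, was 1.60, 1.62 and 1.44 FPKM in OEx mice and 0.199, 0.272 and 0.205 in Ctrl mice. Its log2 fold change of 2.78 ± 0.25 had an adjusted p of 7.31e-05, and the spread within each group was small against the gap. Tpx2, which targets Aurora A to the spindle, was 1.76, 1.70 and 1.34 FPKM against 0.530, 0.545 and 0.492. Tpx2 and Tacc3 were the 2 of this group that the limma fit tested, and both passed the adjusted p there without reaching 2-fold. Kif20b rested on 8, 2 and 5 reads in the Ctrl mice; by summed reads its ratio was 15.9 (exact 95% interval for counting error alone, 9.53 to 28.8).

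All 5 genes of the central spindle and cytokinesis were called higher, with log2 fold changes from 1.20 (Kif20a) to 2.52 (Kif23). Anln, which encodes anillin, the scaffold of the contractile ring, was 2.68, 2.55 and 3.95 FPKM in OEx mice and 0.811, 0.511 and 0.566 in Ctrl mice. It was called by both fits, with 2.27 ± 0.29 (adjusted p = 0.00041) by limma-voom and 1.31 ± 0.17 (0.000579) by limma. Among the OEx mice Anln was highest in replicate 3, the mouse in which most of the 46 genes were lowest. Ect2, the exchange factor that activates RhoA at the cleavage site, was 0.735, 0.820 and 0.597 FPKM against 0.148, 0.158 and 0.159.

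All 5 centromere and kinetochore genes were called higher too, although none reached the 1 FPKM mean that the limma fit required. Their log2 fold changes were 3.16 for Cenpf, 2.98 for Ndc80, 2.80 for Cenpe, 1.70 for Nuf2 and 1.10 for Cenpa, the centromeric histone. Cenpe, the motor that carries chromosomes to the spindle equator, was 0.529, 0.568 and 0.521 FPKM in OEx mice and 0.0927, 0.0986 and 0.0458 in Ctrl mice. Ndc80, a subunit of the complex that grips microtubules, had only 2, 3 and 3 reads in the Ctrl mice against 46, 48 and 21 in OEx mice, a ratio of summed reads of 9.60 (exact 95% interval for counting error 4.71 to 22.8). The levels of these genes were low in both groups even where the ratio was large.

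Among the chromosome structure genes, the condensin subunits and Mki67 rose and Top2a did not pass the test. Smc4, a core subunit of both condensins, was 8.95, 8.34 and 8.23 FPKM in OEx mice and 0.828, 0.771 and 1.29 in Ctrl mice. That made it the third most abundant of the 46 genes in OEx mice, and the one with the highest limma change among those tested there (2.29 ± 0.12, adjusted p = 3.34e-05; limma-voom 3.15 ± 0.21). Mki67, which encodes Ki-67, the coat protein of mitotic chromosomes and the usual marker of cycling cells, was 2.82, 2.71 and 2.22 FPKM against 0.207, 0.131 and 0.307. The Mki67 change was 1.56 ± 0.13 by limma (adjusted p = 0.000113) and 3.62 ± 0.32 by limma-voom (7.49e-05), and the lowest OEx mouse was far above the highest Ctrl mouse. Smc2 and Ncapd2, the other condensin genes of the set, had log2 fold changes of 2.58 and 1.18 and were called. Top2a, which untangles DNA before anaphase and is often read as a marker of dividing cells beside Mki67, was 2.38, 2.51 and 2.01 FPKM in OEx mice and 2.03, 2.22 and 1.38 in Ctrl mice. The groups overlapped, and the log2 fold change was 0.34 (95% interval -0.11 to 0.79, adjusted p = 0.173), so a rise of the size seen for Mki67 lay outside its interval.

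Of the 5 spindle checkpoint genes 3 were called higher, and of the 3 genes of its target, the APC/C with securin, none; the difference was not tested, and Cdc20 and Ube2c were called with the recovered totals. The checkpoint genes called were Ttk, Bub1 and Mad2l1, with log2 fold changes of 3.81, 3.15 and 1.36. Ttk and Bub1 encode kinases that recruit the checkpoint to kinetochores, and both had no read in Ctrl replicate 1 (0, 2 and 4 reads for Ttk and 0, 4 and 9 for Bub1 in the Ctrl mice). Bub1b had a log2 fold change of 0.91 ± 0.21 with an adjusted p of 0.00759, and missed the call by its size. Bub3, which also serves outside mitosis, was 7.62, 6.88 and 6.36 FPKM in OEx mice and 9.40, 8.94 and 7.76 in Ctrl mice, a change of -0.29 (adjusted p = 0.0496) by limma and -0.32 (0.0507) by limma-voom that turned above 0 under other scalings. Cdc20, the APC/C activator, was 3.94, 4.45 and 3.17 FPKM against 2.70, 3.60 and 3.52, with overlap. Pttg1, securin, which holds separase inactive until anaphase, was 8.77, 8.09 and 6.45 FPKM against 10.5, 9.38 and 17.5. The Pttg1 groups did not overlap, yet its log2 fold change of -0.65 (adjusted p = 0.0552) was not called, and turned above 0 with the recovered totals. Ube2c, the E2 enzyme of the APC/C, was not called either, so none of the 3 APC/C and securin genes was.

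In the chromosomal passenger complex, which corrects kinetochore attachments, 2 of 3 genes were called higher. Aurkb, its kinase, was 1.79, 1.87 and 1.13 FPKM in OEx mice and 0.516, 0.813 and 0.402 in Ctrl mice (log2 fold change 1.51 ± 0.37, adjusted p = 0.0103). Birc5, survivin, was 1.74, 1.39 and 0.912 FPKM against 0.611, 0.545 and 0.619 (1.13 ± 0.34, 0.0228), and lost its call when any mouse other than OEx replicate 3 was left out. Cdca8, borealin, had a log2 fold change of 0.67 (95% interval -0.05 to 1.39) and was not called.

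Of the 14 genes with a Ctrl mean of at least 1 FPKM, 3 were called higher, and of the 32 with a lower Ctrl mean, 28 were. The 21.4% of all rows called higher covers every Ctrl level, and the share at a Ctrl mean of at least 1 FPKM was not computed. The Ctrl level is itself a part of the fold change, so these counts are a description. The ratios between genes differed between the groups. Top2a was 9.83, 17.0 and 4.49 times Mki67 in the Ctrl mice and 0.846, 0.927 and 0.906 times in the OEx mice. Aurka was 8.03, 5.89 and 8.08 times Aurkb in Ctrl mice and 1.90, 1.90 and 2.54 times in OEx mice. Cks1b was 3.78, 4.34 and 2.59 times Cks2 in Ctrl mice and 1.03, 0.773 and 1.19 times in OEx mice. Among the condensin genes, Smc4 was 0.448, 0.554 and 0.823 times Ncapd2 in Ctrl mice and 2.18, 2.15 and 2.81 times in OEx mice, and it was 4.73, 4.21 and 3.97 times its partner Smc2 in Ctrl mice and 5.56, 6.30 and 6.90 times in OEx mice. Such ratios within a mouse do not depend on the scaling between mice, but trends on length and GC content, described below, are not removed from them. With those trends removed, the log2 fold changes of Smc4 and Ncapd2 came closer, from 3.15 and 1.18 to 2.03 and 1.33. Those of Mki67 and Top2a did not, going from 3.62 and 0.34 to 3.05 and -0.54. The pairs were chosen after their values were seen, and no test was made of them.

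**Figure D3:**
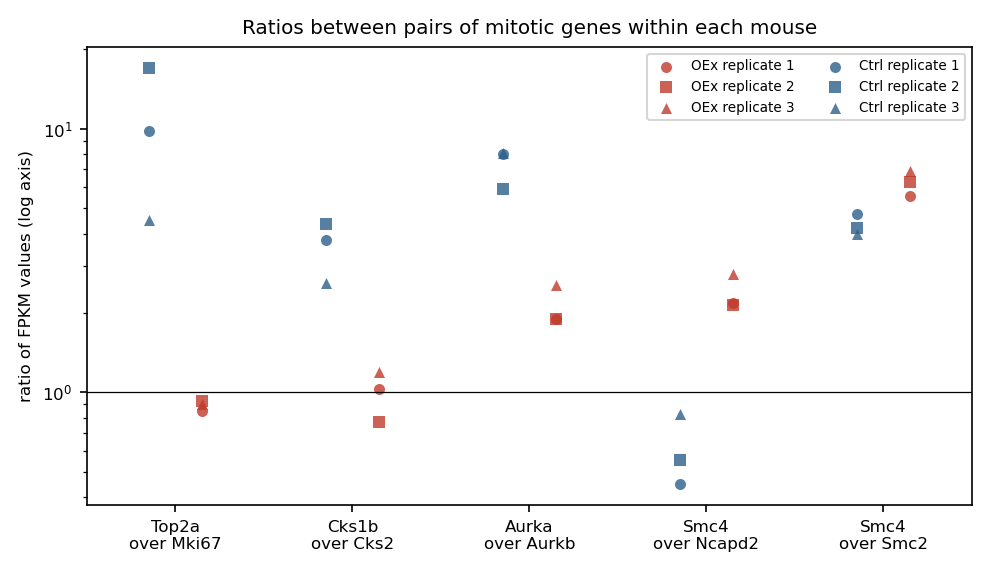
Ratio of the FPKM values of 2 genes within each mouse on a log axis, for 5 pairs of mitotic genes; red symbols are OEx mice, blue symbols Ctrl mice, and the shape gives the replicate. Top2a exceeds Mki67 by 4.49 to 17.0 times in Ctrl mice and lies just below it in OEx mice.

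OEx replicate 3 had the lowest level of the 3 OEx mice for 42 of the 46 genes, where 32.7% of all rows whose mean reached 0.1 FPKM were lowest in that mouse. The median ratio to the Ctrl mean was 2.13 in OEx replicate 3 and 3.13 in the mean of the other OEx mice. It was also the mouse with few immune and fibroblast markers, and the part of those cells in the result was not tested. More than 2 times the Ctrl mean was reached by 24 genes in OEx replicate 3 and by 31 in the mean of the others. The share of all rows above 2 times was not computed. Without OEx replicate 3, limma-voom called 32 genes higher, and without any other single mouse it called 26 to 30. The share of all rows called higher moved too, to 23.7% without OEx replicate 3 and to between 17.2% and 19.0% without any other mouse. The genes whose call depended on a mouse were Birc5, Kif4, Kif2c, Tacc3 and Cenpa, and Plk1 was gained without OEx replicate 3 or Ctrl replicate 1. Without Ctrl replicate 3, the mouse with seminal vesicle transcripts, 28 of the 46 genes were called higher, against 17.9% of all rows.

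GC content moved with the fold changes, in these genes as in all genes. Over the 46 genes, the limma-voom log2 fold change had a Pearson correlation of -0.605 and a Spearman correlation of -0.663 with the GC content of the longest annotated transcript, and of 0.612 and 0.529 with the log2 exon length. These genes share the same 6 libraries, and their GC content ran from 39.4% to 56.0%. Over all 20236 rows the correlations with GC content were -0.316 and -0.354, and those with length 0.0401 and 0.0969. Below 45% GC, 17 of 19 of the mitotic genes and 39.3% of all rows were called higher. From 45% to 50%, 10 of 15 and 21.3% were, and from 50% up, 4 of 12 and 11.4%. In each range the share among the mitotic genes was above that of all rows. With trends on length and GC content removed from each library, an alternative chosen after seeing the data, limma-voom called 27 of the 46 genes higher and 1 lower, against 14.0% of all rows. Bub1, Cenpa, Birc5, Kif4, Nuf2 and Mad2l1 lost the call, Plk1 and Ube2c gained it, and the Top2a change turned to -0.54 (adjusted p = 0.0686). By role, 5 of 12 entry genes, 1 of 5 checkpoint genes, 1 of 3 APC/C and securin genes, 1 of 3 passenger complex genes and 3 of 5 kinetochore genes were then called higher. Mki67 fell from 3.62 to 3.05 and Smc4 from 3.15 to 2.03, and both were still called.

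**Figure D4:**
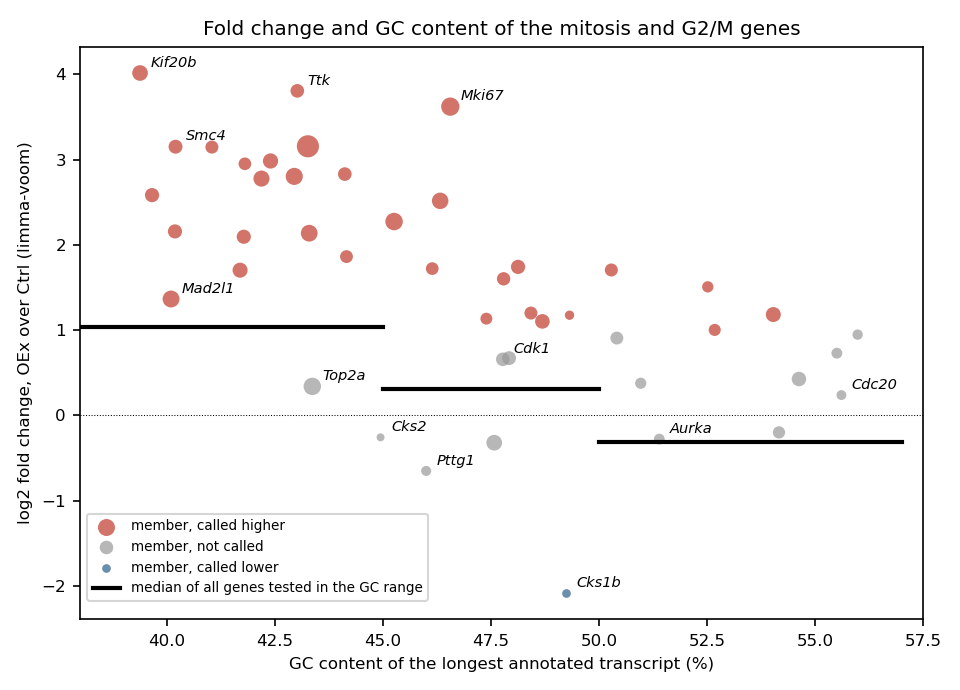
Limma-voom log2 fold change of each mitosis and G2/M gene against the GC content of its longest annotated transcript; the point size grows with exon length, colours give the call, and black lines are the median of all genes tested below 45%, from 45% to 50% and above 50% GC. Genes of low GC content have the larger changes; Aurka, Cks2 and Pttg1, below 0 here, moved above 0 with the recovered library totals.

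Other genes of the same machinery, in lists that hold none of the 46, gave a mixed picture. Of all rows, 21.4% were called higher by limma-voom, and 14.0% with length and GC trends removed. All 20 other spindle and cytokinesis genes were called higher by limma-voom, among them Cep55 (log2 fold change 3.07), Aspm (2.85) and Racgap1 (1.45); the limma fit tested 4 of them and called none, and limma-voom with length and GC trends removed called 13. Of 13 cohesin and shugoshin genes, which hold sister chromatids together, 10 were called higher, such as the cohesin loader Nipbl (1.99) and Smc3 (1.55), but with length and GC trends removed 1 was. Of 5 further condensin subunits 4 were called higher, among them Ncaph at 5.51, 5.15 and 4.51 FPKM in OEx mice and 0.705, 0.646 and 0.764 in Ctrl mice; with the trends removed 2 of the 5 were called. The list of other kinetochore genes held 19, among them Mad2l2, which does not encode a kinetochore component. Of the 19, 7 were called higher, such as Knl1 (4.83) and Spc25 (3.14), and Mad2l2 lower.

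The other lists hold the APC/C and the regulators upstream of mitosis, to be read against the 21.4% of all rows called higher and 15% called lower by limma-voom. Of 17 APC/C subunits and inhibitors, the inhibitor Fbxo5 (2.19) and separase Espl1 (1.41) were called higher, and 3 were called lower, the subunits Anapc11 and Anapc13 and the chain-elongating enzyme Ube2s (-1.32). Among 8 brakes on mitotic entry, Cdkn1a, which encodes the Cdk inhibitor p21, was called higher at 9.45, 8.94 and 5.85 FPKM against 1.84, 2.28 and 4.19, as were the Cdk1-inhibiting kinase Pkmyt1 and the checkpoint kinase Chek1. At the adjusted p alone 5 brakes were higher and 2 lower, against 29.1% and 25.6% of all rows. The 2 lower were Wee1 (-0.85, adjusted p = 0.0215 by limma-voom), whose groups overlapped, and Chek2 (-0.46, 0.039). None of 6 Greatwall and PP2A-B55 genes was called. Without the fold criterion 4 were lower at an adjusted p under 0.05, as were 25.6% of all rows. With the trends removed 3 were called lower. Of 11 DREAM and MuvB regulators, which govern the transcription of this gene set, Mybl2 (1.22) and Lin9 (1.46) were called higher. In all, 48 of these 99 genes were called higher and 4 lower by limma-voom, 28 higher and 10 lower with the trends removed, and 10 higher and 3 lower of the 64 that limma tested. With the trends removed, 2841 of all 20236 rows (14.0%) were called higher and 3204 lower. Limma called 12.9% of its rows higher and 15.7% lower, so its 10 of 64 higher lay near that share.

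**Figure D5:**
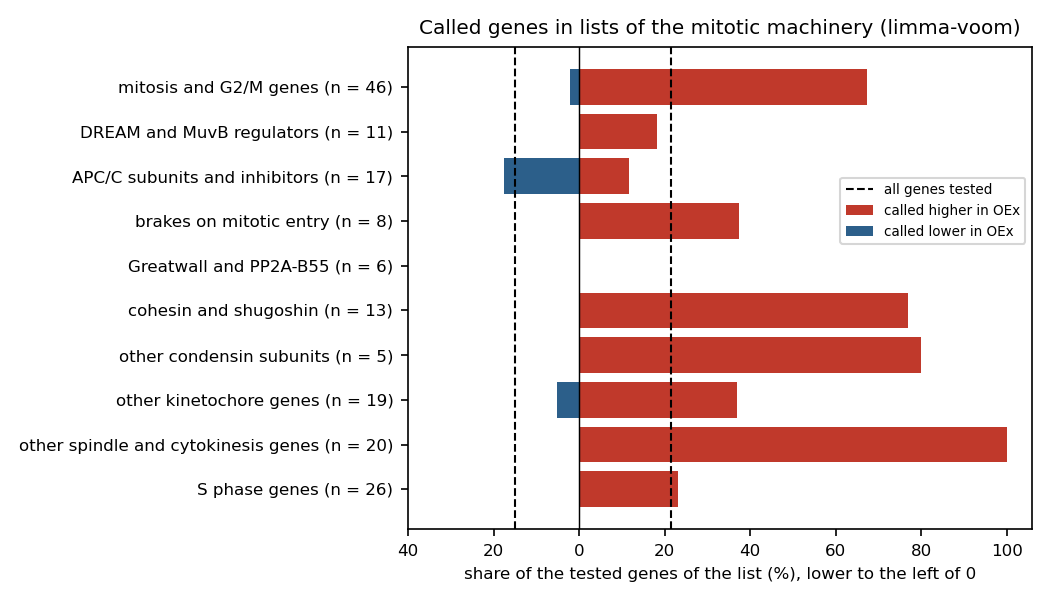
Share of the tested genes of each list called higher (red, right of 0) or lower (blue, left of 0) in OEx mice by limma-voom; dashed lines are the shares among all genes tested, 21.4% higher and 15% lower. The other spindle and cytokinesis genes were all called higher, while the APC/C list had 2 higher and 3 lower, and with the recovered library totals 40.5% of all genes were called higher.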

How the data were processed

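The authors deposited FPKM values, 1 table for each mouse by gene symbol, made from TruSeq libraries with an in-house pipeline. The submitters' processing notes name HISAT2 2.0.5, featureCounts 1.5.0-p3, StringTie 1.3.3b and CASAVA without saying what each did, and the genome build is not given in the sources used here. Strand use in counting is not stated, and 15 of the 46 genes share exon bases with another gene (12 with a gene on the opposite strand), so reads there cannot be assigned with certainty.

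Exon lengths came from GENCODE for GRCm38, matched by symbol to 53636 of 55076 rows. Reads were recovered from the steps between FPKM values, and 96.9% to 97.5% of values under 1000 reads came out whole within 0.05 reads. A library with 0 reads of a gene allows up to 3 reads, and intervals on reads cover counting error only. The main test was limma 3.58.1 (R 4.3.3) on log2(FPKM + 1) with an intensity trend, over rows whose mean reached 1 FPKM. A second fit was limma-voom on the recovered reads over rows with at least 10 reads in total, scaled by the library sizes behind the FPKM values. Both used Benjamini-Hochberg adjustment over all rows and called genes at an adjusted p under 0.05 and more than 2-fold. The labels do not say whether mice of a group share a litter or cage. Replicate numbers come from the sample names. Mice with the same number did not deviate together (correlations -0.194, -0.189 and -0.307), so no block was used. Scaling, filter, pseudocount, model and left-out mice were varied.

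The genes and all lists were chosen with earlier results of these data known. Values in every mouse are given for 12 set genes (Mki67, Top2a, Ccna2, Ccnb1, Ccnb2, Cdk1, Foxm1, Plk1, Aurka, Aurkb, Birc5, Cdc20), for genes called by limma, the 6 with the highest mean FPKM, and the 4 highest and 4 lowest limma changes. Kif11, Tpx2, Ect2 and Cenpe, the genes with few reads and the pairs were named after their values were seen. Promoters came from RefSeq (GRCm38.p6) and the motifs were searched on both strands.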

Additional observations from a re-analysis of the deposited data

How the results depend on the processing

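The limma fit called 3 of the 46 genes higher, and the count moved with scaling, pseudocount and filter. It was 12 with FPKM rescaled to the same sum, 8 with the same without the 20 highest rows, 10 with the recovered library totals, 5 with upper-quartile scaling, 8 with a pseudocount of 0.1 FPKM, 1 with 5 FPKM, 29 with 0.1 FPKM and a filter of 0.1 FPKM, 6 with length and GC trends removed, 31 with limma-voom and 27 with limma-voom and that correction. Over all rows the counts called higher moved too. They were 1653 of 12833 in the limma fit, 4458, 3477 and 3923 under the first 3 settings and 2341 with upper-quartile scaling. With pseudocounts of 0.1 and 5 they were 2307 and 457, and with 0.1 and the lower filter 4254 of 20134. With the trends removed they were 1379 of 12463, with limma-voom 4327 of 20236, and with both 2841 of 20236. Genes higher at the adjusted p alone (10) came to 20, 17 and 18 under the first 3 settings, 32 without the filter, with a filter of 0.1 FPKM, with that filter and pseudocount 0.1, and with limma-voom, and 30 with limma-voom and the correction. Over all rows these counts were 3941 in the limma fit and 7578, 6506 and 7307 under the first 3 settings. They were 5880 of 28612 without the filter and 5794 of 20134 with a filter of 0.1 FPKM. With that filter and pseudocount 0.1 they were 5902, with limma-voom 5893, and with its correction 4158. Genes lower at the adjusted p alone (2) came to 4 with that last fit, to 1 to 3 without a mouse, and to 1 in the other settings that moved it, among them no trend and the replicate block. The median log2 fold change (0.49) was 1.02, 0.88 and 0.96 under the first 3 settings, 0.76 and 0.19 with pseudocounts of 0.1 and 5, 1.22 with 0.1 and the lower filter, 1.55 with limma-voom, 0.74 with the correction and 1.25 with limma-voom and the correction. The other mitotic lists (10 higher, 3 lower) gave 33, 24 and 31 higher and 0 lower under the first 3 settings, 0 lower with upper-quartile scaling, 19 higher with pseudocount 0.1, 1 higher and 0 lower with 5, 41 higher with 0.1 and the lower filter, 48 with limma-voom, 28 and 10 with its correction, and 3 to 5 lower without a mouse. They are to be read against the counts over all rows above. Rows called lower were 2021 of 12833 in the limma fit, and 504, 717 and 589 under the first 3 settings. Aurka turned to 0.47, 0.28 and 0.38, Bub3 to 0.51, 0.30 and 0.41, Cdc25b to 0.45, 0.30 and 0.37, Cks2 to 0.61, 0.38 and 0.50, and Pttg1 to 0.24, 0.018 and 0.13 under the first 3 settings. Upper-quartile scaling turned Cdc25b to 0.051 and Cks2 to 0.031. The correction turned Top2a to -0.37, Aurka to 0.26, Cdc25b to 0.23 and Cks2 to 0.047, and with limma-voom Top2a to -0.54 and Cdc25b to 0.059. The cause was not tested beyond the settings themselves. The replicate numbers do not pair the mice; with them as a block limma called 3 higher and 1 lower, limma-voom called 28 higher, and with the correction and the block limma called 6 with a median of 0.74 and the same values for Top2a, Aurka, Cdc25b and Cks2. Leaving out a mouse kept the limma counts at 3 and 1 and gave 26 to 32 by limma-voom. Over all rows, limma then called 1614 to 1726 higher and limma-voom 17.2% to 23.7%. With the block limma called 1611 of all rows higher and limma-voom 19.6%. Depth limits the genes with fewer than 10 reads in Ctrl mice, whose fold changes have wide intervals.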

Other observations

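DNA replication precedes mitosis in the cycle, and its genes were looked at beside the mitotic ones. Of 26 S phase genes, 6 were called higher by limma-voom and none lower, against 21.4% and 15% of all genes tested. The share called higher was thus close to that of all genes. With length and GC trends removed 8 were called higher and 1 lower, where 14.0% of all genes were called higher. The replicative helicase genes Mcm6 and Mcm4 had log2 fold changes of 1.47 and 1.29, and the polymerase genes Pole and Pola1 of 2.89 and 2.51. Ccne2, cyclin E2, was 0.588, 0.576 and 0.777 FPKM in OEx mice and 0.297, 0.199 and 0.169 in Ctrl mice, and was called higher, as was Uhrf1, which maintains DNA methylation after replication. Ccne1, cyclin E1, was 0.490, 0.657 and 0.416 FPKM against 1.14, 1.31 and 0.717, with a log2 fold change of -0.95 that was not called (adjusted p = 0.0508). Gins2 (-0.86, adjusted p = 0.0231) and Rrm2 (-0.68, 0.054) were also lower by limma-voom without a call. The OEx mice lay above all Ctrl mice for 16 of the 26 genes and below them for 3, Ccne1, Gins2 and Rrm2. Of all rows whose mean reached 0.1 FPKM, 33.9% had the OEx mice above and 29% below.

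Other ratios within a mouse also differed between the groups. Nuf2 was 2.56, 3.41 and 5.12 times its partner Ndc80 in the Ctrl mice and 1.20, 1.19 and 1.66 times in the OEx mice, on counts of at most 3 reads for Ndc80 in the Ctrl mice. Ccnb2 was 6.61, 5.99 and 3.47 times Ccnb1 in the Ctrl mice and 2.44, 3.18 and 3.91 times in the OEx mice, so those ranges overlapped.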
